A study of Mus musculus with 3 samples.

Results

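The genes described here encode the core of the machinery that fuses synaptic vesicles with the presynaptic membrane: Snap25, Stx1a, Vamp1, Vamp2, Cplx1, Cplx2, Nsf and Napb. They were chosen by name as neuronal SNAREs and direct regulators of fusion, and all 8 were rows of each count table, among 32531 rows that name a gene. RNA bound to tagged ribosomes was purified from the cerebral cortex of adult, untreated C57BL/6J mice of the Kcnip2-TRAP line NIDA115. In this line the ribosomal protein L10a fused to EGFP is driven by regulatory sequences of Kcnip2, the gene of a potassium channel partner, and an antibody to EGFP pulls down the ribosomes of those cells with their messenger RNA. The 3 libraries form 1 group of immunopurified samples with replicate numbers from the titles; the labels do not tie each to an animal of its own, and a p-value here refers to differences among the libraries that may be technical. No input library was analysed here, so the values are levels, with no measure of enrichment over the tissue.

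In a nerve terminal, a synaptobrevin (VAMP) on the vesicle zippers with syntaxin and SNAP-25 on the plasma membrane into a SNARE bundle that pulls the membranes together. Complexins bind the assembled bundle and both hold it back and support calcium-triggered release. After fusion the ATPase NSF, recruited by SNAP adaptors such as the one encoded by Napb, takes the bundle apart for another round. Most of these proteins have close relatives, and neuron types differ in which relative they use: Vamp1 and Cplx1 transcripts are known to be prominent in fast-spiking parvalbumin interneurons, and Cplx2 in cortical glutamatergic neurons.

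The coding sequences of the paired relatives are shown first, because the counts can separate Vamp1 from Vamp2 and Cplx1 from Cplx2 only where their sequences differ. Both stretches are in-frame windows of the coding sequence (GENCODE M21, GRCm38), with positions counted from 1 at the A of the start codon, and capitals mark the bases that differ between the 2 genes of a pair. The Vamp window covers coding positions 85 to 324 of Vamp1 and 79 to 318 of Vamp2.
Vamp1: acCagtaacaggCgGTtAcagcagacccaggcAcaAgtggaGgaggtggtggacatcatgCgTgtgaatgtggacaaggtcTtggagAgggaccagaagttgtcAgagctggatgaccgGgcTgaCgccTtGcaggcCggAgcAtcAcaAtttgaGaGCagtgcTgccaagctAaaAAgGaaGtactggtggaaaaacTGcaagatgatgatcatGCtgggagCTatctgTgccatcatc
Vamp2: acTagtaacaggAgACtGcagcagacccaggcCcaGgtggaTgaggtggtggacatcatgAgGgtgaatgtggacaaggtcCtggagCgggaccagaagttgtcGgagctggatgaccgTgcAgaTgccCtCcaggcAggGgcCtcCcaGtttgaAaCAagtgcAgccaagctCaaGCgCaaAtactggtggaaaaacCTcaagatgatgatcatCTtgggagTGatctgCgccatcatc
The Cplx window covers positions 1 to 240 of both genes.
Cplx1: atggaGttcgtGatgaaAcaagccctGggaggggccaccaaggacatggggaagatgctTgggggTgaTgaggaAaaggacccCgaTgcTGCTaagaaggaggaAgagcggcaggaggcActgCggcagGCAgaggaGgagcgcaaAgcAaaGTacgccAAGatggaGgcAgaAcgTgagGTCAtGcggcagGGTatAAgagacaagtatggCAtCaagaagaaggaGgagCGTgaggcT
Cplx2: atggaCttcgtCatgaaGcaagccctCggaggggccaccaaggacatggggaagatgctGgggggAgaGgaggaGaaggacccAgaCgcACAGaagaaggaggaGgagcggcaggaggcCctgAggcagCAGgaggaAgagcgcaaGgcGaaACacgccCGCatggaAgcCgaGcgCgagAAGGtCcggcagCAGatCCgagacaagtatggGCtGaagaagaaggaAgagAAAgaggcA
The Vamp window holds 39 differing bases in 240, and the Cplx window holds 50. Over the whole aligned coding sequence, identity was 77.2% for Vamp1 and Vamp2 and 79.6% for Cplx1 and Cplx2. The longest run shared by the principal transcripts was 18 bases for the Vamp pair and 32 bases for the Cplx pair. For the other paralogue pairs it was 26 bases between Napb and Napa and 25 between Snap25 and Snap23. Windows of 50 bases found in an annotated transcript of another gene, on either strand, made up 2.12% of the Cplx2 principal transcript, 0.726% of Snap25 and 0.0229% of Napb. For Stx1a, Vamp1, Vamp2, Cplx1 and Nsf no such window was found. No source used here gives the read length.

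All 8 genes lie on GRCm38, the assembly that mm10 names. Snap25 is on chromosome 2 (136713453 to 136782428, plus strand), Napb on chromosome 2 (148693985 to 148732467, minus), Vamp1 on chromosome 6 (125215551 to 125245964, plus) and Vamp2 on chromosome 11 (69088490 to 69092384, plus). Nsf is on chromosome 11 (103821782 to 103954056, minus), Cplx2 on chromosome 13 (54371349 to 54383917, plus), and Stx1a (135023482 to 135051100, plus) and Cplx1 (108518554 to 108550024, minus) are on chromosome 5. No exon of a member overlapped an exon of another annotated gene. All 8 are protein-coding genes, and reads were counted for each gene as a whole, so isoforms of a gene cannot be told apart.

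The libraries held 11602248 to 14174384 gene counts, and 3 counts, the limit that a count of 0 allows, corresponded to 0.213 to 0.256 CPM. CPM is a gene's read count relative to the library size, here scaled by TMM. No pair of libraries agreed within sampling noise (chi-square 12.2 to 28.4 per degree of freedom). Of the marker genes listed for neurons, 6 of 6 pan-neuronal, 5 of 5 glutamatergic and 5 of 5 GABAergic genes reached 1 CPM in every library. Glial and vascular markers were present as well: 7 of 7 astrocyte genes, 5 of 6 oligodendrocyte, 3 of 5 microglial and 3 of 5 endothelial and mural genes reached that level.

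Each of the 8 fusion genes reached 1 CPM in all 3 libraries, against 37.3% of all gene rows, and 7 reached 100 CPM in every library, against 5.75%. Together they supplied 4.29% ± 0.232 (SD, n = 3) of all gene counts, of which Snap25 took the greater part; the 7 others supplied 0.940% ± 0.0188. The median member was at 1503 CPM, beside a median of 19.9 CPM over the 12559 genes kept by filterByExpr of edgeR with a minimum count of 10, a filter that all 8 passed.

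Among the SNAREs, Snap25, the plasma membrane SNARE that supplies a pair of helices to the bundle, was at 31380.1, 33129.5 and 36012 CPM in replicates 1, 2 and 3. Its mean of 33507 ± 2339 CPM was the highest of all gene rows. Vamp2, the main synaptobrevin of forebrain synapses, was at 2475, 2535 and 2587 CPM (mean 2532 ± 56.3, SD, n = 3), the most even of the 8 genes, with a coefficient of variation of 2.22%. Its relative Vamp1 was lower in every library, at 564, 411 and 397 CPM (mean 458 ± 92.7), and was highest in replicate 1, with the other two libraries close together. Stx1a, a plasma membrane syntaxin gene, was the scarcest member by far at 38.4, 67.0 and 48.5 CPM (mean 51.3 ± 14.5). These levels rest on 451, 907 and 685 reads. Stx1a was lowest in replicate 1 and highest in replicate 2.

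The complexins differed in which library was high. Cplx1 was at 2177, 1639 and 1529 CPM (mean 1782 ± 347) and Cplx2 at 753, 1086 and 1185 CPM (mean 1008 ± 226). Replicate 1 was thus the highest library for Cplx1 and the lowest for Cplx2, although Cplx1 exceeded Cplx2 in all 3. Of the disassembly genes, Nsf was at 2030.4, 2449.8 and 2564 CPM (mean 2348 ± 281) and Napb, which encodes the brain form of the NSF adaptor, at 1127, 1197 and 1347 CPM (mean 1224 ± 112). Both were lowest in replicate 1 and highest in replicate 3.

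**Figure D1:**
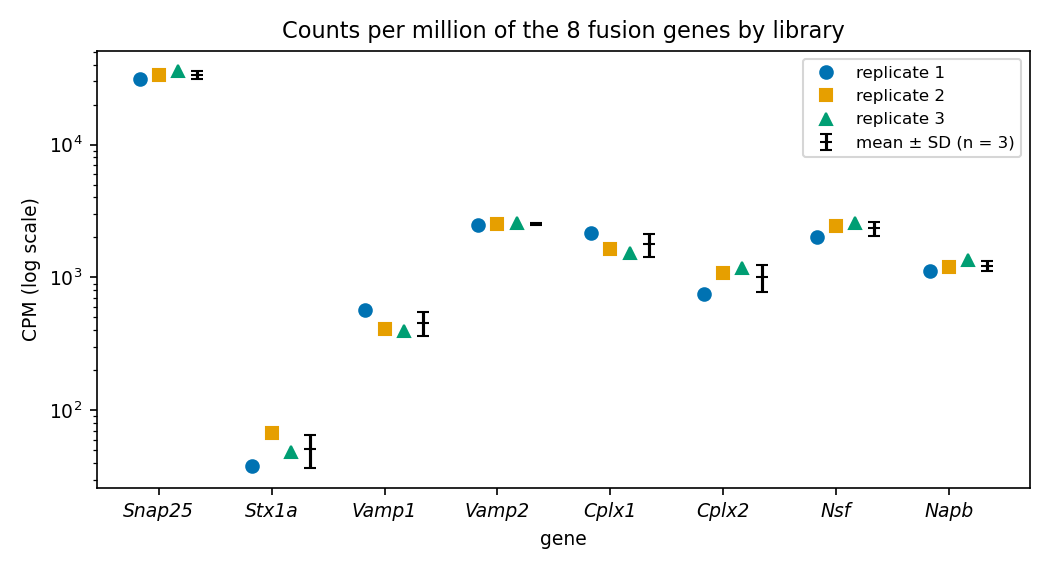
CPM on a log axis for the 8 genes, with 1 point per library and the mean ± SD (n = 3) to the right of each gene. Snap25 spans 31380.1 to 36012 CPM, Stx1a 38.4 to 67.0 CPM, and the points of Vamp1, Cplx1, Cplx2 and Nsf split with replicate 1 apart from the other libraries.

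Levels of different genes were compared per kilobase of exon, using the union of all annotated exons. The order of the means was Snap25 at 4934 ± 344 CPM per kilobase, Cplx1 at 814 ± 158, Vamp2 at 665 ± 14.8, Nsf at 281 ± 33.7, Cplx2 at 205 ± 45.9, Napb at 174 ± 15.9, Vamp1 at 45.0 ± 9.12 and Stx1a at 19.2 ± 5.43 (SD, n = 3). Some neighbours in this order did not differ beyond their spread: Cplx1 and Vamp2 were 149 apart at an SD of 158 for Cplx1, which was nonetheless the higher in each library, and the libraries of Cplx2 (153 to 241) spanned those of Napb (160 to 191). The libraries of Nsf (243 to 307) lay just above those of Cplx2. Snap25, at the top, and Vamp1 and Stx1a, at the bottom, did not overlap any other member. Snap25 alone made up 69.1% ± 1.94 of the members' summed level per kilobase, Cplx1 11.5% ± 2.65 and Vamp2 9.32% ± 0.206.

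The order depended in part on the length used. A union of exons counts retained introns and alternative ends, and for Snap25 and Vamp1 it is 6791 and 10167 bases, while the principal transcript named by the annotation is 2116 and 2772 bases. Per kilobase of principal transcript, a length chosen after the data were seen, Snap25 was at 15835 ± 1105, Vamp2 at 1148 ± 25.5, Cplx1 at 814 ± 158, Nsf at 623 ± 74.6, Napb at 277 ± 25.4, Cplx2 at 205 ± 45.9, Vamp1 at 165 ± 33.5 and Stx1a at 23.7 ± 6.69. Vamp2 then lay above Cplx1 in all 3 libraries and Napb above Cplx2, while Snap25 remained highest and Stx1a lowest. Vamp1 no longer stood clear of the other members. Its libraries (143 to 204) overlapped those of Cplx2 (153 to 241), and in replicate 1 Vamp1 was above Cplx2 (204 against 153).

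**Figure D2:**
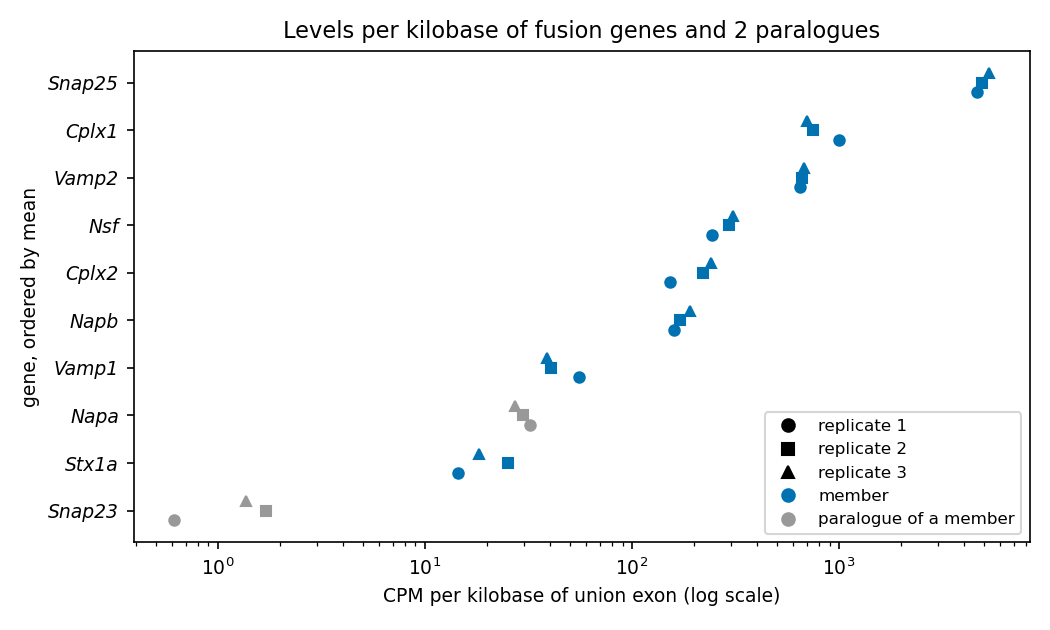
CPM per kilobase of union exon on a log axis for the 8 genes (blue) and 2 paralogues (grey), ordered by mean, with 1 point per library. Snap25 stands apart at the top, Stx1a is the lowest of the 8, and Snap23 is the lowest at 1.23 CPM per kilobase.

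Relations between genes were measured as log2 ratios of levels per kilobase within each library, a quantity free of library scaling. They were tested with limma fits that compared every one of 12149 other genes with the same reference gene, two-sided, adjusted over all of them (Benjamini-Hochberg). All ratios to 1 reference share that gene's error. For several references limma pooled the spread over all genes completely, so a second adjusted p from each gene's own spread is given too; that fit was added after seeing the data. With 3 libraries, the smallest p that an exact sign-flip test allows is 0.25. The tests do not cover the error in the lengths.

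Vamp2 exceeded Vamp1 in 3 of 3 libraries, by log2 ratios of 3.55, 4.04 and 4.12. The mean was 3.90 ± 0.31 (SD, n = 3), and the folds per kilobase were 11.7, 16.5 and 17.4 (limma adjusted p = 6.84e-47, and 0.00721 from the pair's own spread). The fold was 7.04 per kilobase of principal transcript and 5.60 by counts alone. In this fit 4.14% of genes were called above Vamp1. Of the summed level of Vamp1, Vamp2 and Vamp3, the last a widely expressed relative, Vamp2 supplied 92.5% ± 1.58 and Vamp1 6.26% ± 1.29 per kilobase. By counts, Vamp1 supplied 15.1% ± 2.81.

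Cplx1 exceeded Cplx2 in 3 of 3 libraries, but by unequal amounts: 6.51-fold in replicate 1, 3.40-fold in replicate 2 and 2.90-fold in replicate 3. The log2 ratios of Cplx2 to Cplx1 were -2.70, -1.76 and -1.54, with an SD of 0.62 (n = 3; limma adjusted p = 2.35e-18, and 0.0304 from the pair's own spread). That call places Cplx2 with 99.8% of genes, which were called below Cplx1. By counts, or per base of coding sequence, which has the same length in both genes, the difference was 1.78-fold. Cplx1 supplied 86.6%, 77.2% and 74.3% of the summed level of the 4 complexin genes per kilobase in replicates 1, 2 and 3. Cplx3, a complexin known from retina and the deep cortex, was at 3.84 ± 0.959 CPM, and Cplx4, a retinal one, had 0 counts in every library, which allows up to 0.256 CPM.

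Napb exceeded Napa, the widely expressed adaptor gene, in 3 of 3 libraries. Napa was at 112 ± 9.19 CPM. The log2 ratio was 2.55 ± 0.25 (SD, n = 3), or 5.84-fold per kilobase (limma adjusted p = 1.57e-13, and 0.00680 from the pair's own spread; 8.4% of genes were called above Napa). The fold was 10.9 by counts. Nsf exceeded Napb by 0.61, 0.79 and 0.69 on the log2 scale, with a mean of 0.69 ± 0.09, or 1.62-fold per kilobase (limma adjusted p = 3.14e-06, and 0.00621 from the pair's own spread; 0.798% of genes were called above Napb). This order depended on length: per kilobase of coding sequence, which is 2232 bases in Nsf and 894 in Napb, the log2 ratio turned to -0.38 (limma adjusted p = 0.00102).

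Snap25 was 7.41-fold above Vamp2 per kilobase, its partner in the SNARE bundle (log2 ratio 2.89 ± 0.07, SD, n = 3; limma adjusted p = 3.22e-10, and 0.000583 from the pair's own spread; 0.148% of genes were called above Vamp2). Per kilobase of principal transcript the fold was 13.8. The ratio to Stx1a was far wider, with a log2 value of 8.03 ± 0.38, or 262-fold (limma adjusted p = 5.55e-120, and 0.0203 from the pair's own spread; 10.9% of genes were called above Stx1a), and 682-fold per kilobase of principal transcript.

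Snap23, a widely expressed relative of Snap25, was at 2.64, 7.31 and 5.88 CPM, on 31, 99 and 83 reads. The log2 ratio of Snap25 to Snap23 was 12.04 ± 0.68 per kilobase (limma adjusted p = 1.02e-109, with 63% of genes called above Snap23; adjusted p = 0.0562 from the pair's own spread). Of the summed level of Snap25, Snap23, Snap29 and Snap47, Snap25 supplied 96.1% ± 0.557 per kilobase. Most of the remainder was Snap47, a neuronal relative, at 183 ± 16.6 CPM per kilobase.

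**Figure D3:**
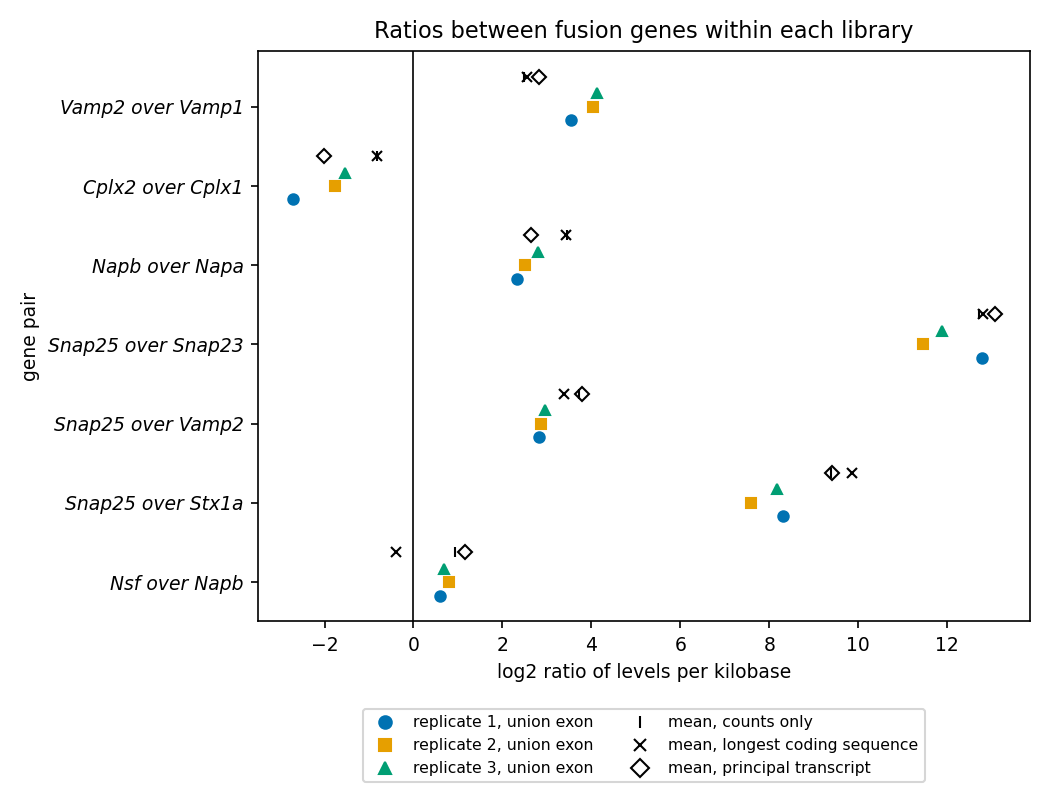
Log2 ratios of levels per kilobase for the 7 pairs, with coloured points for each library (union exon length) and black marks for the mean with no length, with coding length and with principal transcript length. All 3 libraries lie on the same side of 0 in every pair, and the coding-length mark of Nsf over Napb, at -0.38, is the one mark on the other side.

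Of the other fusion genes listed, 56 in number, 55 were in the tables, 49 reached 1 CPM in every library (37.3% of all gene rows did) and 18 reached 100 CPM (5.75%). Their median was 41.8 CPM. Among the 28 other SNAREs, Snap47 was the highest at 486 ± 43.9 CPM, followed by Vti1a at 242 ± 16.8 CPM. Per kilobase Snap47 was also the highest, followed by Stx12, an endosomal syntaxin gene, at 61.4 ± 8.09 CPM per kilobase. Stx2, a plasma membrane syntaxin gene, was at 1.16 ± 0.456 CPM, Vamp7 is listed at 0 counts in all libraries, and 5 of the 28 reached 100 CPM. No exon length was matched to the Vamp7 row, and the cause of its 0 counts was not tested. Of the SM proteins and syntaxin-binding genes, Stxbp2 was the lowest by counts at 5.86 ± 1.69 CPM, and Scfd1 was the lowest per kilobase at 1.17 ± 0.142. Among the priming and fusion regulators, Cadps, a gene for dense-core vesicle priming, led by counts at 580.3 ± 42.3 CPM and Prrt2, a regulator of SNARE assembly, per kilobase at 97.1 ± 11.8. Of the disassembly and chaperone genes, Hspa8, a constitutive chaperone, was at 1935 ± 171 CPM and Dnajc5, the vesicle co-chaperone gene that partners it, at 419.9 ± 0.742 CPM, and the co-chaperone gene Sgta was lowest at 47.7 ± 5.82 CPM.

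Variation between replicates was tested with edgeR's quasi-dispersion F ratio, which sets the spread of each gene against the trend for its level. None of the 8 fusion genes was called variable after adjustment over 12559 genes; 11 genes in all were (0.0876%). At an unadjusted p under 0.05, 4 of the 8 passed, against 5.72% of all genes. These were Cplx2 (F = 6.95, unadjusted p = 0.00414, edgeR adjusted p = 0.524), Vamp1 (unadjusted p = 0.0191), Stx1a (unadjusted p = 0.0206) and Cplx1 (unadjusted p = 0.0214), the last 3 with an edgeR adjusted p of 0.777. Without replicate 1, 1 of the 8 passed at that level, Stx1a, and without replicate 2 only Cplx2 did. DESeq2 marked none of the 8 as a dispersion outlier. Of the 49 other fusion genes past the filter, 0 were called by edgeR after adjustment and 1 passed unadjusted, the syntaxin-binding gene Stxbp6, at 111, 114 and 161 CPM.

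**Figure D4:**
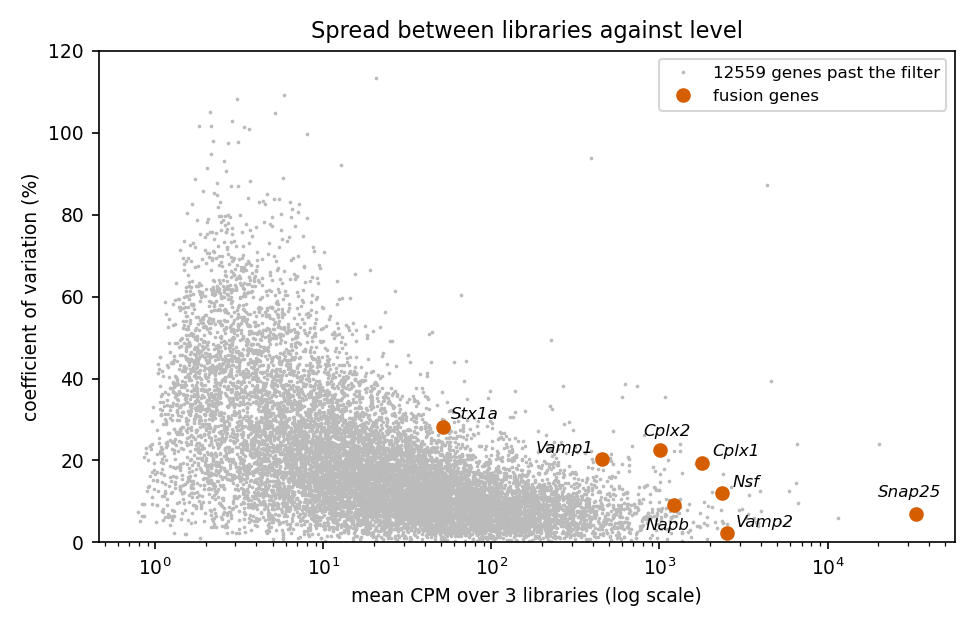
Coefficient of variation over the 3 libraries against mean CPM (log axis) for 12559 genes, with the 8 fusion genes in orange; 1 gene lies above the plotted range of 120%. Stx1a, Vamp1, Cplx1 and Cplx2 have coefficients of 19.5% to 28.2%, and Vamp2, Snap25 and Napb 2.22% to 9.16%.

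Marker lists and nuclear RNAs also varied between the libraries, and their values stand beside those of the 4 genes. Of the parvalbumin interneuron list, 6 of 6 genes were highest in replicate 1, as Vamp1 and Cplx1 were. The summed level of the list was 1413, 1111 and 1033 CPM in replicates 1, 2 and 3, and none of its genes was at 0. Pvalb itself was at 195, 117 and 99.9 CPM. Of the glutamatergic list, 5 of 5 genes were lowest in replicate 1, with summed levels of 6727, 8251 and 9147 CPM. Cplx2 was lowest there too, as were Snap25, Stx1a, Vamp2, Nsf and Napb. Sv2b, a vesicle protein gene of that list, was at 877, 1156 and 1324 CPM. Being lowest in replicate 1 was not particular to that list: 5 of 6 pan-neuronal genes were lowest there too, with sums of 7389, 8429 and 8905 CPM. The GABAergic list summed to 2739, 2455 and 2421 CPM, with 4 of 5 genes highest in replicate 1. Among other fusion genes past the filter, 10 of 24 SNAREs and 1 of 10 SM and syntaxin-binding genes were highest there. So were 2 of 10 priming and fusion regulators and 2 of 5 disassembly and chaperone genes. The share of all genes highest in replicate 1 is not given here. The somatostatin interneuron list summed to 498, 613 and 959.8 CPM, most of it from Sst (429, 551 and 895 CPM, edgeR adjusted p = 0.0284). Of the 3 genes in that list, only Sst was lowest in replicate 1. Crhbp was highest there, at 45.6, 41.2 and 39.1 CPM. Nr2f2 was lowest in replicate 2, at 22.8, 20.5 and 25.4 CPM.

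Replicate 1 also stood apart in nuclear RNAs, of which 5 of 5 were highest there, as Vamp1 and Cplx1 were. Their list summed to 10650.4, 3538 and 2432 CPM, and 3 of the 5 were called variable by edgeR after adjustment, among them Malat1 at 8782, 2578 and 1801 CPM. This list, like the marker lists, was chosen with earlier results of these data known. Its calls are therefore a description and no independent test. The part of the cell classes and of nuclear RNA in the spread of the fusion genes was not tested, and in bulk libraries fewer cells of a type and less RNA per cell cannot be told apart.

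Stx1a and Snap23 had another order, lowest in replicate 1 and highest in replicate 2. The astrocyte list summed to 2517, 4052 and 3396 CPM, the microglial list to 33.2, 53.7 and 50.9 CPM, and the endothelial and mural list to 14.7, 22.8 and 18.6 CPM. These sums had the same order, but it was that of 5 of 7 astrocyte genes, 1 of 5 microglial genes and 2 of 5 endothelial and mural genes. Aldh1l1 and Gfap, the other two astrocyte genes, were highest in replicate 1, and Cldn5, an endothelial marker, was at 0 in replicates 2 and 3. The oligodendrocyte list had another order, at 503, 599 and 423 CPM, with 2 of 6 genes in that of Stx1a. The part of any of these in the levels of Stx1a and Snap23 was not tested.

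**Figure D5:**
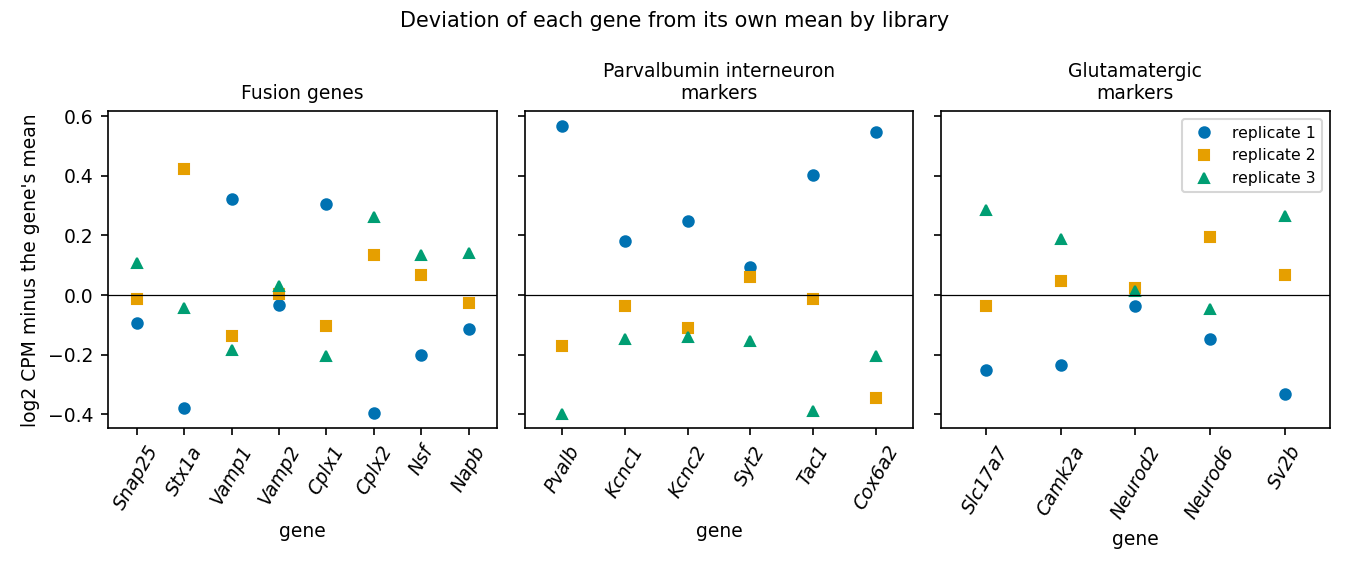
Log2 CPM minus the gene's own mean in each library, for the 8 fusion genes, 6 parvalbumin interneuron markers and 5 glutamatergic markers. Replicate 1 is the highest point for Vamp1, Cplx1 and all 6 parvalbumin markers. It is the lowest for every other fusion gene and all 5 glutamatergic markers.

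Over the 3 libraries, the gene nearest to each member in log2 CPM was found among genes past the filter, as a description of level and pattern together. The closest match was Ywhab to Nsf, at a distance of 0.0277, followed by Esrrg to Vamp1 at 0.0475. Esrrg, an orphan nuclear receptor gene, was at 561, 399 and 392 CPM. Rab6a was nearest to Napb (0.0699), Ywhae to Vamp2 (0.0753), Rab9 to Stx1a (0.179), Tuba1a to Cplx2 (0.203) and Slc25a4 to Cplx1 (0.341). For Snap25 the nearest gene, Rn45s, lay 1.46 away and is a ribosomal RNA precursor, at 23796.7, 22511.4 and 14795 CPM.

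Vamp1 and Cplx1 were the members highest in replicate 1, and the sequences before their start sites are shown for that reason. Neither gene was called variable after adjustment, and a link between these sequences and the order of the libraries was not tested. Promoter entries (RefSeq, GRCm38.p6) were found for 6 of the 8 genes, without Snap25 and Vamp2. The Vamp1 sequence is chr6:125215331-125215580, plus strand, and the Cplx1 sequence chr5:108550028-108550277, minus strand. Both are the 250 bases before the start site of the entry. The Vamp1 window ends inside the gene as annotated by GENCODE, which begins at 125215551. Capitals mark matches on either strand to the TATA box TATAAA, the GC box GGGCGG, the CAAT box CCAAT, the E box CACGTG, the cAMP response element TGACGTCA and its shorter form TGACG, which lies within it.
Vamp1: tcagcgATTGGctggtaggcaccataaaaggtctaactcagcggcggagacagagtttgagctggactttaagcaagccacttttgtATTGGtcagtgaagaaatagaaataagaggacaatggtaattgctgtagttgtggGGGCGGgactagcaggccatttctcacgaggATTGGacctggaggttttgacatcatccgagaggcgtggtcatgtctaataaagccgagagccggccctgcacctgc
Cplx1: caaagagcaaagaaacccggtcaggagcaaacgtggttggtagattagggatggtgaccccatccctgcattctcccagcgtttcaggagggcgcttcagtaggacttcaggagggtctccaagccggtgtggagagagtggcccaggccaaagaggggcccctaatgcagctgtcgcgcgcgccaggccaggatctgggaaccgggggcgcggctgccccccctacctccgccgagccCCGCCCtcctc
Both hold 1 match to GGGCGG, the core of the GC box, which 32.7% of 32851 promoters of that length hold. Vamp1 holds 3 matches to CCAAT, found in 33.8% of promoters, and Cplx1 holds 0. None of the 6 members matched TATAAA (12.4% of promoters) or TGACGTCA (1.55%). Stx1a matched TGACG (17.8%) and Nsf CACGTG (6.02%), and Napb and Cplx2 matched none of the motifs; the Cplx2 entry lies 68793 bases from the start annotated by GENCODE. These matches are letters in a window, not sites of binding.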

How the data were processed

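Ribosome-bound RNA from 3 libraries of 1 group was analysed. The deposited values are raw read counts per gene symbol, made by the authors with STAR 2.0.0e and HTSeq on mm10, per the submitters' processing notes. No source used here gives the annotation release, counting mode or strand setting. Rows that name no gene were left out; gene rows held 61.9%, 67.6% and 70.7% of reads in replicates 1, 2 and 3. CPM used TMM library sizes (edgeR 4.0.16), and log2 values a prior count of 2. Variation between replicates was tested with an intercept-only edgeR quasi-likelihood fit (robust), and ratios with limma 3.58.1 (R 4.3.3). Both were adjusted at 0.05 over all genes past the filter. Both were also run on simulated counts, with the same dispersion for every gene and ratios to Vamp1 alone, without lengths. That setting differs from the data, so those runs do not vouch for the p-values given here. DESeq2 1.42.0 gave alternatives. Exon lengths from GENCODE M21 matched 23155 rows by symbol and 773 by an older symbol. All members are named; other genes are named where they form a pair, are highest or lowest of a role (where reported), were nearest to a member or passed the variation test unadjusted. Vti1a, Stx12, Dnajc5, Cplx3 and the single marker genes were named after their values were seen. The members and lists were chosen with earlier results of these data known. Some listed items are not reported here.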

Additional observations from a re-analysis of the deposited data

How the results depend on the processing

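Of the 7 pair ratios, all kept their direction and their call under these alternatives (no length, longest transcript, coding length, untrended or robust moderation, no count filter, each library left out), except Nsf over Napb, which turned to -0.38 with the longest coding sequence. With each pair's own spread, added after seeing the data, Snap25 over Snap23 (log2 ratio 12.04, adjusted p = 0.0562) did not pass; the cause was not tested. Leaving out 1 library gave log2 ratios of -2.23 to -1.65 for Cplx2 over Cplx1 and 3.79 to 4.08 for Vamp2 over Vamp1. The number of members called variable stayed at 0 under all alternatives. The number of genes called variable was 11, and 66 with no count filter, 5 with a non-robust prior, 4 without replicate 2 and 28 by DESeq2's dispersion mark; the cause was not tested. Members with an unadjusted p under 0.05 numbered 4, and 1 to 3 with 1 library left out. Member levels moved by less than 1 SD in each setting except Vamp2 (2677 CPM when Snap25 and Rn45s were left out of the library size). No paired analysis was possible because there is 1 group. Depth limits the scarce genes, such as Snap23, at 31, 99 and 83 reads, and Stx2, at 17, 19 and 9 reads.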
